A study of Homo sapiens with 4 samples.

Results

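The genes described here are the 249 protein-coding genes of chromosome 19 whose GENCODE release 44 name begins with ZNF, out of 1476 protein-coding genes on that chromosome and 20033 on chromosomes 1 to 22, X and Y. They make up 48.3% of the 516 ZNF genes of those chromosomes. A ChIP-seq peak was assigned to a gene when at least 1 bp of it lay in the gene span widened by 3 kb on each side. It was called a promoter peak when it lay within 1 kb of the gene's 5' end, and a gene-body peak otherwise. The other 1227 protein-coding genes of chromosome 19 served as the comparison.

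ZNF genes encode proteins with arrays of classical zinc fingers, short loops that each hold a zinc ion and contact a few bases of DNA. Many also carry a KRAB domain, which recruits the co-repressor TRIM28 (KAP1) and the histone methyltransferase SETDB1, and which is known for silencing retrotransposons. The family grew by repeated duplication of neighbouring genes, so that chromosome 19 holds long clusters of related copies. Smad2 and Smad3 are the DNA-associated signal carriers of the TGFβ pathway: they are phosphorylated by the activated receptor, move into the nucleus with Smad4 and bind near the genes they regulate.

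Binding was measured by ChIP-seq with an anti-GFP antibody in MDA-MB-231 cells, a triple-negative breast cancer line. The cells carried a bacterial artificial chromosome with Smad2 or Smad3 under its own control elements and fused to the GFP-containing LAP tag. They were stably transfected, selected with Geneticin and sorted for GFP, and they kept their endogenous Smads. The 4 conditions were LAP-Smad2 untreated, LAP-Smad3 untreated, LAP-Smad2 with 10 ng/mL TGFβ-1 for 2 h and LAP-Smad3 with the same treatment, with 1 library each. There was therefore no replicate, no test was made between conditions, and the 95% intervals given (Wilson for shares, exact Poisson for densities) cover counting error alone. For the untreated pair the sample titles and the names inside the deposited lists give opposite Smads. Their label is used as a name here, and the untreated pair is not compared. The lists held 11266 peaks (labelled LAP-Smad2 untreated), 3511 (labelled LAP-Smad3 untreated), 26828 (LAP-Smad2 treated) and 62551 (LAP-Smad3 treated). Fold enrichment and −log10 q were not on a common scale across lists.

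The 249 ZNF genes lay between positions 2819868 and 58481230 of chromosome 19 (hg38), 134 of them on the plus strand. Their median length was 26.1 kb, against 13.8 kb for the other genes, and the merged widened spans covered 8750 kb and 30709 kb. Of the 248 members with a canonical coding sequence, 247 encoded at least 1 zinc finger pattern. The median was 12.5 fingers and the highest number was 39, in ZNF729. A KRAB-like pattern was found in 180 members. The spans of 55 members overlapped another member, and 3 members were read-through genes that share a promoter or exons with a neighbour, so that neighbouring genes can share a peak.

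The sequences under the peaks fell into a few recurrent kinds. Some matched the common Alu repeat (Alu-type), some a repeated unit of high GC content (GC-rich unit), and others neither. From the promoters, 4 windows of 200 bp on the peak centre are shown as examples. They are read 5' to 3' on the plus strand of hg38. Capitals mark the Smad-associated letters CAGAC, and the GC-rich letters GGCGC or else GGCCG, on either strand. The window of ZNF83 held the promoter peak with the highest −log10 q among ZNF promoters in LAP-Smad2 treated. ZNF439 had a promoter peak in both treated lists, with high GC content in each. ZNF799 and ZNF443 are neighbouring relatives whose promoter windows were near copies, and both had a peak in LAP-Smad2 treated. ZNF443 was chosen after its values were seen.
ZNF83 promoter, LAP-Smad2 treated, chr19:52689863-52690062: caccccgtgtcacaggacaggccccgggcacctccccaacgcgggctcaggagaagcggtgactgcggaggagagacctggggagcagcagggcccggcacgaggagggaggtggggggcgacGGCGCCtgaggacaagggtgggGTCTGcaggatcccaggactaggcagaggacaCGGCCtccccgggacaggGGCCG
ZNF439 promoter, LAP-Smad3 treated, chr19:11849026-11849225: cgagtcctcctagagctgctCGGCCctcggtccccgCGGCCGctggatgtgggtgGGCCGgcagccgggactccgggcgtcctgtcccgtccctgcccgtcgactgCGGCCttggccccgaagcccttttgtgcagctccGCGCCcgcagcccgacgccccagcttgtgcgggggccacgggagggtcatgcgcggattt
ZNF799 promoter, LAP-Smad2 treated, chr19:12400849-12401048: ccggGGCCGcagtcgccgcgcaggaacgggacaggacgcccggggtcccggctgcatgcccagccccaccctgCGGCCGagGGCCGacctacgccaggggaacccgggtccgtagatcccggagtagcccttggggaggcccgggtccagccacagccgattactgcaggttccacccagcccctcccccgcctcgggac
ZNF443 promoter, LAP-Smad2 treated, chr19:12440706-12440905: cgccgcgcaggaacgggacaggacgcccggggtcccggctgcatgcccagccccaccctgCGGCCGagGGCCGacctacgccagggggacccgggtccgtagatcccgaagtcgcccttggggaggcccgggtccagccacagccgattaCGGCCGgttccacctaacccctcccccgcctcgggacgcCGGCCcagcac

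The first comparison asked whether ZNF genes carried peaks as often as their neighbours on the same chromosome. After TGFβ-1 they did, within counting error: 115 of 249 ZNF genes (46.2%, 40.1 to 52.4%) had a peak in LAP-Smad2 treated, against 47.8% of the other genes (45.1 to 50.6%). In LAP-Smad3 treated the share was 156 of 249 (62.7%, 56.5 to 68.4%), against 61.5% (58.7 to 64.1%). Over all 1476 genes of the chromosome, 47.6% and 61.7% had a peak in these lists. In the library labelled LAP-Smad2 untreated, 41 ZNF genes (16.5%, 12.4 to 21.6%) had a peak, beside 13.1% of all genes of the chromosome and 12.5% of the other genes. In the library labelled LAP-Smad3 untreated, 12 ZNF genes (4.82%, 2.78 to 8.23%) had a peak, beside 6.44% of all genes and 6.76% of the other genes. In each of the 4 lists the intervals of the ZNF genes and the other genes overlapped.

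**Figure D1:**
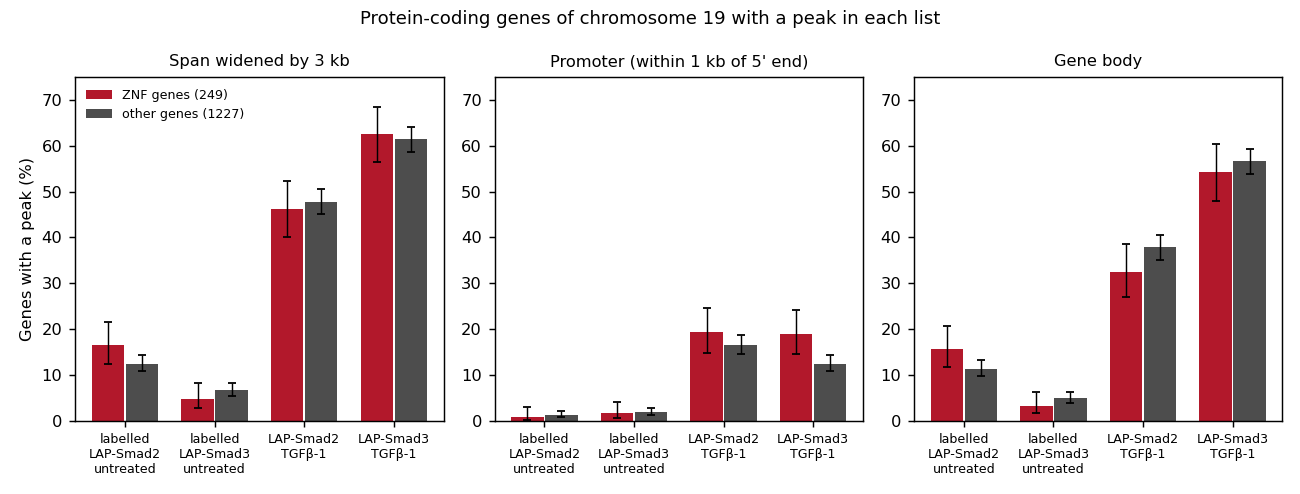
Share of protein-coding genes of chromosome 19 with a peak (vertical axis, %) in each of the 4 lists, for the 249 ZNF genes (red) and the 1227 other genes (grey), in the widened span, the promoter and the gene body. Error bars are 95% Wilson intervals, which cover counting error of 1 library per condition. The promoter share in LAP-Smad3 treated, 18.9% against 12.5%, is the one pair whose intervals do not overlap.

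Promoter peaks were somewhat more frequent at ZNF genes in LAP-Smad3 treated. In LAP-Smad3 treated, 47 ZNF genes (18.9%, 14.5 to 24.2%) had a promoter peak, against 12.5% of the other genes (10.7 to 14.4%) and 13.6% of all genes of the chromosome, and these intervals did not overlap. In LAP-Smad2 treated, 48 ZNF genes (19.3%, 14.9 to 24.6%) had one, against 16.5% of the other genes (14.6 to 18.7%) and 17.0% of all genes. Promoter peaks were rare without TGFβ-1. They stood at 2 ZNF genes, ZNF773 and ZNF430, in the library labelled LAP-Smad2 untreated (0.803%, beside 1.22% of all genes). They stood at 4, ZNF823, ZNF835, ZNF773 and ZNF256, in the library labelled LAP-Smad3 untreated (1.61%, beside 1.83% of all genes). The ZNF430 window, centred 891 bp upstream, had only 1% GC and 45 alignments to hg38 with at least 90% of bases matching. The higher promoter share of LAP-Smad3 treated depended on the distance allowed: within 500 bp it was 14.5% of ZNF genes against 7.66%, and within 3 kb it was 26.5% against 27.9%. With the start sites of all protein-coding transcripts it was 23.7% (59 of 249) against 20.5%, a smaller difference.

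Gene-body peaks did not set ZNF genes apart by the share of genes. A gene-body peak was present at 81 ZNF genes (32.5%, 27.0 to 38.6%) in LAP-Smad2 treated, where 36.9% of all genes of the chromosome had one, and at 135 (54.2%, 48.0 to 60.3%) in LAP-Smad3 treated, where 56.2% had one. The counts were 39 (15.7%, beside 12.1%) and 8 (3.21%, beside 4.67%) in the libraries labelled LAP-Smad2 and LAP-Smad3 untreated. ZNF genes are longer, however, and per length they held fewer treated peaks. In LAP-Smad2 treated there were 143 peaks in ZNF spans, or 1.63 per 100 kb (1.38 to 1.93), against 2.38 per 100 kb (2.21 to 2.56) in the spans of the other genes. In LAP-Smad3 treated there were 251 peaks, or 2.87 per 100 kb (2.52 to 3.25), against 4.46 (4.23 to 4.70). The difference lay in the bodies: 1.16 against 1.87 gene-body peaks per 100 kb in LAP-Smad2 treated and 2.43 against 4.29 in LAP-Smad3 treated. Promoter peaks per 100 kb of promoter were 9.79 (7.19 to 13.0) against 8.93 (7.73 to 10.3) and 10.4 (7.73 to 13.7) against 6.63 (5.60 to 7.79). The GC content of the spans also differed, with a mean of 43.4% in 200-bp tiles of ZNF spans and 51.8% in the other spans, and the part of GC content in the densities was not tested.

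Split by gene length, the share of genes with a peak was highest over 40 kb in both families in each treated list. Among genes of 20 to 40 kb, the class with the most members, 43 of 102 ZNF genes (42.2%, 33.0 to 51.9%) had a peak in LAP-Smad2 treated, against 151 of 260 other genes (58.1%, 52.0 to 63.9%). In LAP-Smad3 treated the shares in this class were 58.8% (49.1 to 67.9%) and 70.4% (64.6 to 75.6%), with overlapping intervals. Below 20 kb and above 40 kb the intervals of the families also overlapped, in both treated lists. In ZNF genes over 40 kb, 35 of 53 (66.0%) and 45 of 53 (84.9%) had a peak in LAP-Smad2 and LAP-Smad3 treated.

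**Figure D2:**
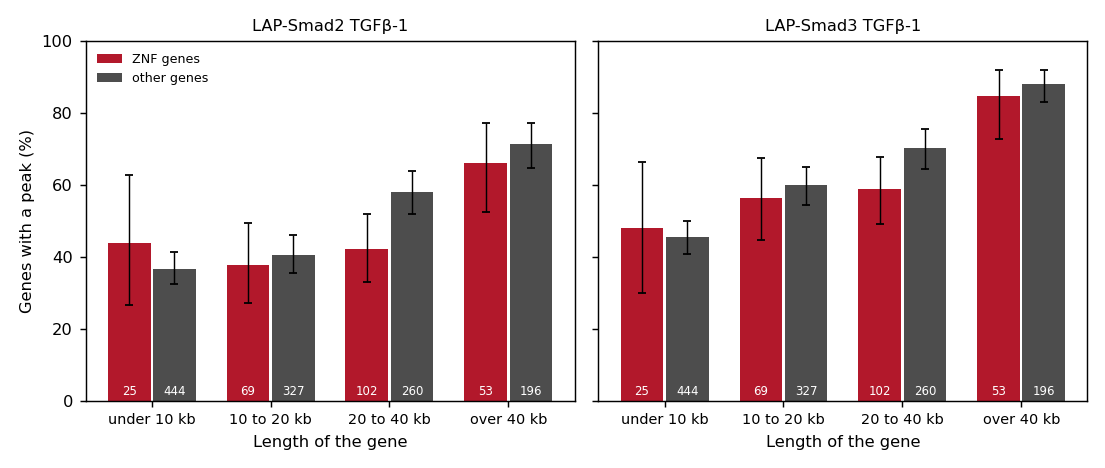
Share of genes with a peak (vertical axis, %) by gene length (horizontal axis) in the treated lists, for ZNF genes (red) and other genes (grey). Error bars are 95% Wilson intervals and the white figures give the number of genes. At 20 to 40 kb the ZNF shares, 42.2% and 58.8%, lie below those of the other genes, 58.1% and 70.4%, with overlapping intervals in LAP-Smad3 treated.

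Among the strongest peaks the order of the families changed in LAP-Smad2 treated, and for the density alone in LAP-Smad3 treated. Each list was cut to its 3511 highest −log10 q values, the length of the shortest list. Then 19 ZNF genes (7.63%, 4.94 to 11.6%) had a peak in LAP-Smad2 treated, against 3.10% of the other genes (2.26 to 4.22%). The density was 0.206 per 100 kb (0.122 to 0.325) against 0.111 (0.0767 to 0.155), with overlapping intervals. These 19 genes included ZNF91, known as a repressor of SVA retrotransposons, and ZNF274, known to bind the 3' exons of other ZNF genes and to recruit SETDB1 there. Both were singled out after their values were seen. ZNF91 had a promoter peak (5.97-fold, −log10 q 10.6) and ZNF274 an intronic peak (5.60-fold, −log10 q 9.43). In LAP-Smad3 treated 6 ZNF genes, ZNF66, ZNF714, ZNF675, ZNF221, ZNF155 and ZNF548, remained (2.41%, 1.11 to 5.16%), against 1.71% of the other genes. The order of these shares was that of the full list. The LAP-Smad3 treated density was 0.0571 per 100 kb (0.0186 to 0.133) against 0.0488 (0.0273 to 0.0806), with overlapping intervals.

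Over the whole family, 55 ZNF genes (22.1%) had no peak in any list, close to the 19.9% of the other genes. Both treated lists had a peak at 82 ZNF genes (32.9%, beside 31.9% of the other genes), LAP-Smad2 treated alone of the treated pair at 33 (13.3%, beside 196 of 1227) and LAP-Smad3 treated alone at 74 (29.7%, beside 29.6%), all near the shares of the other genes. The 5 longest genes without a peak were ZNF565 (64.0 kb), ZNF43 (47.2 kb), ZNF507 (42.1 kb), ZNF793 (41.8 kb) and ZNF667 (38.7 kb). At the other end, ZNF709 held 8 peaks in LAP-Smad3 treated, 7 of them Alu-type and 1 a GC-rich unit, and its single peak in LAP-Smad2 treated covered the same GC-rich unit. These peaks also lay in the spans of unnamed neighbouring genes. The numbers of peaks per gene were low in general: 81 ZNF genes had exactly 1 peak in LAP-Smad2 treated and 34 had more, and in LAP-Smad3 treated 81 had 1 peak and 75 had more.

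At promoters the treated lists shared few ZNF genes, as at the other genes, and their peaks lay on different sequence. A promoter peak was present in both treated lists at 7 ZNF genes (2.81%, beside 1.55% of the other genes), in LAP-Smad2 treated but not LAP-Smad3 treated at 41 (16.5%, beside 184 of 1227), and in LAP-Smad3 treated but not LAP-Smad2 treated at 40 (16.1%, beside 10.9%). Windows under LAP-Smad2 promoter peaks had a mean GC content of 69.5% (SD 4.58, 47 windows), and those under LAP-Smad3 promoter peaks 61.1% (SD 3.54, 50 windows). The promoters themselves differed much less: 2 kb around the 5' end had 53.4% GC at the 41 genes (SD 4.44) and 51.8% at the 40 genes (SD 3.70). LAP-Smad2 promoter peaks lay inside the transcribed side, with a median centre 313 bp downstream of the 5' end and 87.8% of 49 gene-peak pairs downstream. LAP-Smad3 promoter peaks had their median 130 bp downstream, with 66.7% of 51 pairs downstream and 43.1% within 250 bp of the 5' end, against 26.5% of the LAP-Smad2 pairs, with overlapping intervals (30.5 to 56.7% and 16.2 to 40.3%). At the other genes the medians were in the same order, 275.5 bp downstream for LAP-Smad2 and 58 bp for LAP-Smad3. So were the shares of pairs downstream, 75.7% and 53.5%. The shares within 250 bp were in the opposite order there, 27.1% for LAP-Smad3 and 31.1% for LAP-Smad2. The same difference in GC content was present at the other genes (70.7% and 61.9%), so it was not particular to the ZNF family.

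**Figure D3:**
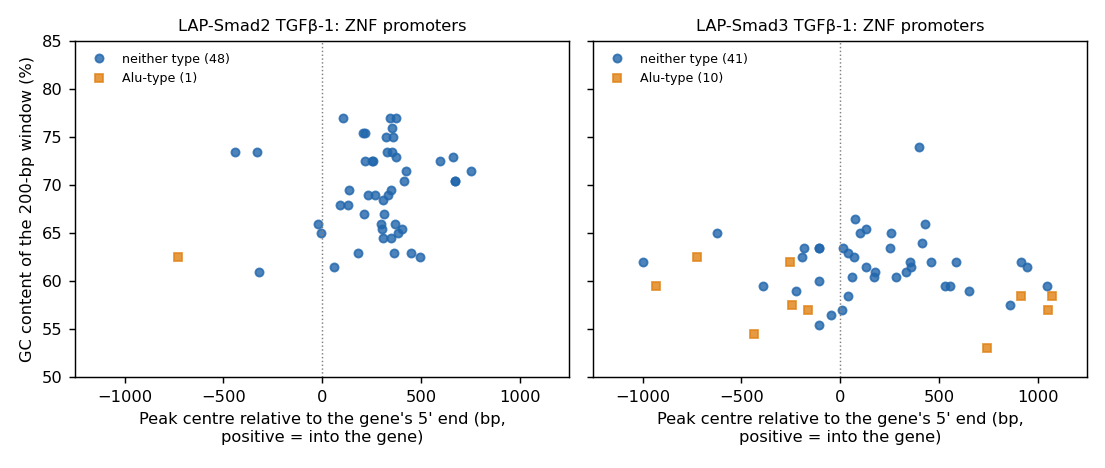
Promoter peaks of ZNF genes in the treated lists: position of the peak centre relative to the gene's 5' end (horizontal axis, bp) and GC content of the 200-bp window (vertical axis, %). Each point is 1 gene-peak pair, with colour and shape giving the sequence type. The LAP-Smad2 points gather downstream around 313 bp at a mean of 69.5% GC over windows, and the LAP-Smad3 points spread around the 5' end at 61.1%.

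The 7 genes with a promoter peak in both treated lists were ZNF566, ZNF304, ZNF132, ZNF780A, ZNF439, ZNF799 and ZNF8. Each encodes a KRAB-like pattern and between 7 and 17 fingers, and ZNF304 is known as a transcriptional repressor. At 6 of them a LAP-Smad2 and a LAP-Smad3 peak overlapped. The exception was ZNF799, where the peaks lay 322 bp and 944 bp downstream of the 5' end. At ZNF304 the LAP-Smad2 peak (5.78-fold, −log10 q 9.78) lay 382 bp downstream, between LAP-Smad3 peaks 49 bp upstream (5.93-fold, −log10 q 5.50) and 529 bp downstream (4.41-fold, −log10 q 3.17). At ZNF132 both lists had a pair of peaks on either side of the start or upstream of it, with centres from 624 bp upstream to 305 bp downstream. At ZNF439 the peaks lay 354 bp and 400 bp downstream, and the LAP-Smad3 window had 74.0% GC, the highest among the ZNF promoter windows of that list. At ZNF566 the overlapping pair, 728 bp upstream, was Alu-type sequence that reached the limit of 50 further alignments listed. None of the 7 promoters had a peak in an untreated list.

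The promoter peaks with the highest −log10 q in LAP-Smad2 treated were at ZNF83 (6.33-fold, −log10 q 11.7, 596 bp downstream), ZNF792 (6.09-fold, 11.6, 372 bp) and ZNF599 (6.17-fold, 10.6, 352 bp). Their windows had 72.5%, 73.0% and 73.5% GC and a single place in the genome, and LAP-Smad3 treated had no peak at these promoters. In LAP-Smad3 treated the highest were at ZNF155 (7.31-fold, −log10 q 10.3, 245 bp upstream), ZNF714 (7.58-fold, 9.20, centred 1069 bp downstream) and ZNF569 (6.71-fold, 7.63, 389 bp upstream). The windows of ZNF155 and ZNF714 were Alu-type, and the peak of ZNF155 also touched the 3' end of ZNF221. The window of ZNF569 was of neither type and had a single place in the genome.

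Some bound promoter windows had near copies at other ZNF genes. Of the 47 LAP-Smad2 promoter windows, 8 had another place in hg38 with at least 90% of bases matching (17.0%, 8.89 to 30.1%), beside 11.1% (7.34 to 16.3%) at the other genes, with overlapping intervals. For all 7 of these with 1 to 10 copies, a copy lay at another ZNF gene. The pairs were ZNF799 and ZNF443 (193 of 200 bases matching), ZNF208 with ZNF728 and ZNF738, ZNF676 with ZNF208, ZNF91 with ZNF98, ZNF543 with ZNF460, and ZNF419 with ZNF773 (98.0% matching). Of the 50 LAP-Smad3 promoter windows, 10 had another place (95% interval 11.2 to 33.0%), beside 32.6% (25.4 to 40.7%) at the other genes. Only the 3 of these 10 with 1 to 10 copies were searched for a copy at another ZNF gene, and 1, at ZNF799, had one. Reads from such copies can be assigned to the wrong gene, and the part of this in the peaks was not tested. A word of 20 letters, which no other word exceeded in the number of LAP-Smad2 promoter windows holding it, was found in 4 of the 47 windows, at ZNF441, ZNF443, ZNF799 and the ZNF20 and ZNF625 pair.
LAP-Smad2 promoter word: acgcccggggtcccggctgc
It is shown because none of the 190 promoter windows at the other genes alone held it. The word lay in the 2-kb promoters of 11 ZNF genes in all, from ZNF823 to ZNF709, all inside the run from ZNF653 to ZNF490 and of 2 other genes. Of these 11, 4 had a LAP-Smad2 treated promoter peak, 1 a LAP-Smad3 treated one and 1 a peak in the library labelled LAP-Smad3 untreated.

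Gene-body peaks lay mostly in introns. In LAP-Smad3 treated 156 of 251 peaks at ZNF genes were intronic (62.2%, 56.0 to 67.9%), 50 were promoter peaks, 27 lay in the 3-kb flanks, 15 in untranslated exons and 3 in a last coding exon. In LAP-Smad2 treated 57 of 143 were intronic (39.9%, 32.2 to 48.0%), 47 were promoter peaks, 22 lay in the flanks, 10 in untranslated exons, 5 in other coding exons and 2 in a last coding exon. The last coding exon usually encodes the finger array, and it is the sequence most repeated between members. Counting any overlap of 1 bp with the 248 last coding exons, 379 kb in all, 4 LAP-Smad3 treated peaks touched an exon, at ZNF317, ZNF526, ZNF865 and ZNF91. That is 1.05 per 100 kb (0.287 to 2.70), against 2.87 per 100 kb of whole spans. LAP-Smad2 treated had 2 such peaks (ZNF324 and ZNF575), the library labelled LAP-Smad3 untreated 1 (ZNF524) and the library labelled LAP-Smad2 untreated none (0 peaks, which allows up to 0.972 per 100 kb).

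The gene-body windows of ZNF genes differed in sequence type from those of the other genes, for the Alu-type in the treated lists only. Windows were sorted by 12-letter words. Alu-type windows held at least 10 words common to gene spans of chromosome 19 outside peaks. GC-rich unit windows held at least 10 words shared by a group of 175 peak windows outside the ZNF genes. These 175 windows held a 12-letter word chosen as the most frequent, Alu-type words aside, in the library labelled LAP-Smad2 untreated. Both word sets were learned outside the ZNF genes, and Alu is named from general knowledge of the most common short repeat in human genes, since no repeat annotation was used. In LAP-Smad3 treated 125 of 201 ZNF gene-body windows were Alu-type (62.2%, 55.3 to 68.6%), against 400 of 1181 at the other genes (33.9%, 31.2 to 36.6%). The spans themselves ran the other way, with 28.6% of ZNF tiles and 35.5% of the tiles of the other genes Alu-type. In LAP-Smad2 treated the shares were 25 of 96 (26.0%, 18.3 to 35.6%) and 43 of 518 (8.30%, 6.22 to 11.0%). At windows of 55 to 65% GC the difference remained: 61.0% of 118 ZNF windows and 30.1% of 834 other windows in LAP-Smad3 treated were Alu-type, with 30.0% and 20.6% of the span tiles in that GC class. Under 55% GC the intervals overlapped, with 91.4% (81.4 to 96.3%) and 83.2% (77.1 to 88.0%). In the library labelled LAP-Smad2 untreated 15 of 44 ZNF gene-body windows were Alu-type (34.1%, 21.9 to 48.9%). The share at the other genes was 28.1% (21.1 to 36.5%), with overlapping intervals. The library labelled LAP-Smad3 untreated had 0 Alu-type windows among 7.

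The GC-rich unit was rarer than the Alu-type in the treated lists, and its share at ZNF genes was above that at the other genes. Its words came from peak windows, starting from the library labelled LAP-Smad2 untreated. A high share in that library, and an excess over tiles, were therefore partly set by the definition. It made up 20 of 44 ZNF gene-body windows in the library labelled LAP-Smad2 untreated (45.5%, 31.7 to 59.9%), against 13 of 128 at the other genes (10.2%, 6.03 to 16.6%). In LAP-Smad2 treated it made up 19 of 96 (19.8%, 13.1 to 28.9%) against 3.47%, and in LAP-Smad3 treated 19 of 201 (9.45%, 6.14 to 14.3%) against 0.847%. The library labelled LAP-Smad3 untreated had 2 such windows among 7, at ZNF675 and ZNF429. Of all 200-bp tiles in ZNF spans 0.269% were of this type, against 0.0450% at the other genes, and among tiles over 65% GC the shares were 10.3% and 0.415%. Within the windows over 65% GC, the unit made up 20 of 25 (labelled LAP-Smad2 untreated), 14 of 53 (LAP-Smad2 treated) and 16 of 25 (LAP-Smad3 treated).

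**Figure D4:**
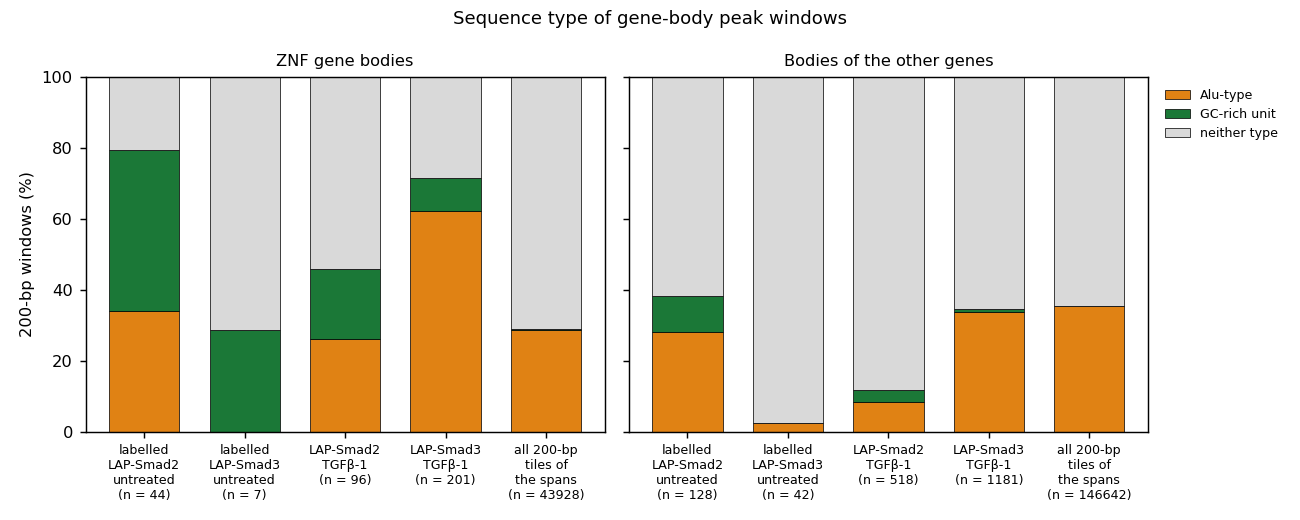
Sequence type of gene-body peak windows (vertical axis, % of 200-bp windows) at ZNF genes (left) and other genes (right), in each list and in all 200-bp tiles of the gene spans. Bars are stacked to 100% and n is the number of windows. Alu-type windows make up 62.2% of the LAP-Smad3 treated ZNF windows against 28.6% of the ZNF tiles, and GC-rich unit windows 45.5% in the library labelled LAP-Smad2 untreated against 0.269%. The unit was defined from peak windows outside the ZNF genes, starting from that library.

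Peaks of different lists met on both sequence types, and for LAP-Smad3 treated more often on the GC-rich unit. Of the 19 GC-rich unit windows in ZNF bodies of LAP-Smad3 treated, 12 overlapped a LAP-Smad2 treated peak (63.2%, 41.0 to 80.9%) and 13 a peak of the library labelled LAP-Smad2 untreated (68.4%, 46.0 to 84.6%). Of its 125 Alu-type windows, 6 (4.80%) and 8 (6.40%) did so, and of the 57 windows of neither type, 3 and 3. In the other direction the types differed less: of the LAP-Smad2 treated gene-body windows, 10 of 19 GC-rich unit windows (52.6%, 31.7 to 72.7%) and 9 of 25 Alu-type windows (36.0%, 20.2 to 55.5%) overlapped a LAP-Smad3 treated peak. In the library labelled LAP-Smad2 untreated 13 of 20 and 8 of 15 did so. Over all peaks at ZNF genes, 28 of 143 LAP-Smad2 treated peaks (19.6%) overlapped a LAP-Smad3 treated peak, and 28 of 251 LAP-Smad3 treated peaks (11.2%) a LAP-Smad2 treated peak. At the other genes these shares were 8.33% and 4.54%. At ZNF genes 24 of the 46 peaks in the library labelled LAP-Smad2 untreated overlapped LAP-Smad3 treated and 17 LAP-Smad2 treated. The shares for this library were 52.2% and 37.0%, beside 21.5% and 15.3% at the other genes. The library labelled LAP-Smad3 untreated had 11, of which 0 and 6 did so. At the other genes 11.3% and 41.9% of its 62 peaks did so, in the same order. Whether the libraries shared a control sample is not given in the sources used here, and the part of a shared background was not tested.

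Most of these windows had more than 1 place in the genome. Another copy with at least 90% of bases matching was counted for 129 of 201 LAP-Smad3 treated ZNF gene-body windows (64.2%, 57.3 to 70.5%), against 30.3% at the other genes. The 129 include 4 windows that gave no alignment at all, which were counted as having another copy. The shares were 54 of 96 (56.2%, 46.3 to 65.7%) against 19.5% in LAP-Smad2 treated, and 38 of 44 (86.4%, 73.3 to 93.6%) against 54.7% in the library labelled LAP-Smad2 untreated. Without the peaks of such windows, the share of ZNF genes with a peak dropped to 39.8% (33.9 to 45.9%) in LAP-Smad3 treated, against 47.9% of the other genes, and to 33.3% (27.8 to 39.4%) in LAP-Smad2 treated, against 42.7%. In the library labelled LAP-Smad2 untreated it became 2.81% against 7.25%, below the other genes rather than above them. The search for copies does not find every copy of a common repeat, so these shares may be too low, apart from the windows without an alignment. The treatment of reads with several places was not given in the sources used here.

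Short motifs followed these sequence types. AGGTCA, the half-site of nuclear receptors, was present in 76 of 201 LAP-Smad3 treated ZNF gene-body windows (37.8%, 31.4 to 44.7%), against 15.8% of all ZNF tiles. At the other genes it was present in 28.4% (25.9 to 31.0%) of these windows. It stood in 67 of the 125 Alu-type windows (53.6%, 44.9 to 62.1%), beside 30.4% of Alu-type tiles. At the other genes 201 of 400 Alu-type windows (45.4 to 55.1%) held it, a similar share. Of the 57 ZNF windows of neither type, 9 held it (15.8%, 8.54 to 27.4%), beside 10.0% of such tiles. For the other motifs, windows at the other genes were not split by type. CAGAC, the Smad-binding letters, was present in 26.9% of all LAP-Smad3 treated ZNF gene-body windows, beside 27.9% of all tiles and 33.6% of windows at the other genes. By type, it stood in 5.60% of the Alu-type windows, 89.5% of the GC-rich unit windows and 52.6% of the windows of neither type (30 of 57), beside 19.7%, 77.1% and 31.0% of the tiles of each type. In LAP-Smad2 treated CAGAC stood in 15 of 19 GC-rich unit windows (78.9%) and in 32.7% of the windows of neither type. GGCGC stood in 80 of the 125 Alu-type windows of LAP-Smad3 treated (64.0%, 55.3 to 71.9%), beside 23.9% of Alu-type tiles. The E-box letters CANNTG stood in 35.2% of these windows, beside 67.7% of Alu-type tiles, and CAGCTG, which is also a CANNTG match, in 0 of 125. Motifs were searched on both strands, and a match describes letters and is not a site.

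In the promoters, GGCGC was present in 74.5% of the LAP-Smad2 treated ZNF windows and 52.0% of the LAP-Smad3 treated ones, beside 56.6% of 200-bp windows on the 5' ends of all ZNF genes. GGCCG was present in 70.2% and 52.0%, beside 47.8%. CAGAC was present in 38.3% and 34.0%, beside 38.2%, so that both lists were near or below the share of the start sites. AGGTCA was present in 2 of 47 and 11 of 50 windows, beside 12.9%. In promoter windows at the other genes GGCGC was present in 67.9% (LAP-Smad2 treated) and 39.7% (LAP-Smad3 treated). GGCCG was present there in 75.3% and 41.1%, and AGGTCA in 4.74% and 17.0%. For these motifs the lists stood in the same order as at ZNF promoters, so the order was not particular to the family. CAGAC, with 37.9% and 39.7%, stood in the opposite order there.

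The clusters were compared as runs of at least 5 ZNF genes with gaps of up to 250 kb, which gave 12 runs with 233 of the 249 genes. All 12 runs held peaks in both treated lists. The LAP-Smad3 treated density ran from 2.56 per 100 kb (1.85 to 3.46) in the 29-gene run from ZNF737 to ZNF254 to 3.91 (2.74 to 5.42) in the 43-gene run from ZNF264 to ZNF446, and in each run it was below the 4.46 of the other genes of the chromosome, although the intervals of several runs included that value. The LAP-Smad2 treated density ran from 0.889 (0.183 to 2.60) in the run from ZNF101 to ZNF486 to 4.38 (1.19 to 11.2) in the 5-gene run from ZNF302 to ZNF792, with wide intervals in the small runs. Among the large runs, the 1.08 (0.573 to 1.84) of the run from ZNF565 to ZNF573 lay below the 2.94 (1.93 to 4.27) of the run from ZNF264 to ZNF446, and these intervals did not overlap.

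By counts the runs differed in what their peaks were, but no intervals were made for the promoter and sequence type counts. The run from ZNF264 to ZNF446, at the end of the chromosome arm, had 14 of its 43 promoters bound in LAP-Smad2 treated, and 9 of 26 promoters were bound in the run from ZNF653 to ZNF490. Over all ZNF genes 48 of 249 promoters (19.3%) were bound in that list, beside 17.0% of all genes of the chromosome. The run from ZNF737 to ZNF254, which has the lowest GC content of the 12 (40.1%), had 3 of 29 promoters bound in that list. It held 11 of the 19 GC-rich unit windows of LAP-Smad2 treated and 8 of the 20 in the library labelled LAP-Smad2 untreated. The run from ZNF565 to ZNF573 had 22 Alu-type windows among 32 LAP-Smad3 treated peaks and no GC-rich unit, and the run from ZNF653 to ZNF490 had 20 among 25. Over all ZNF genes 135 of the 251 peaks of that list had Alu-type windows. In the run from ZNF737 to ZNF254 there were 17 peaks with the label LAP-Smad2 untreated, or 1.04 per 100 kb (0.604 to 1.66), and the 26-gene run from ZNF653 to ZNF490 had 0 peaks in that library, which allows up to 0.463 per 100 kb.

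**Figure D5:**
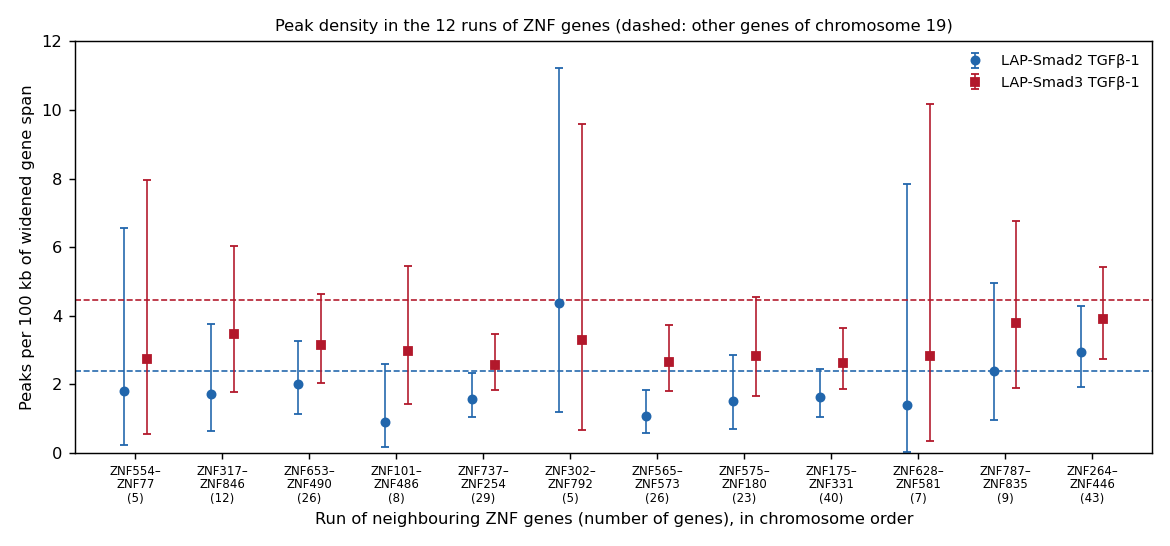
Peaks per 100 kb of widened gene span (vertical axis) in the 12 runs of neighbouring ZNF genes (horizontal axis, in chromosome order, with the number of genes), for LAP-Smad2 treated (blue circles) and LAP-Smad3 treated (red squares). Error bars are exact 95% Poisson intervals and dashed lines give the other genes of chromosome 19, 2.38 and 4.46. The LAP-Smad3 points lie between 2.56 and 3.91, all below their line.

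A peak in all 4 lists was found at 4 ZNF genes, ZNF429, ZNF675, ZNF773 and ZNF584, beside 8 of the 1227 other genes. At ZNF429 a GC-rich unit 54.9 kb into the gene carried the strongest ZNF peak of the library labelled LAP-Smad2 untreated (14.1-fold, −log10 q 28.2), overlapped there by peaks of the other 3 lists (4.03-fold, 4.51-fold and 4.19-fold). At ZNF675, which encodes an inhibitor of TRAF6 signalling, a unit 154 kb from the 5' end was shared by both untreated libraries and LAP-Smad2 treated, and an intronic window 18.5 kb from the 5' end by the library labelled LAP-Smad2 untreated (7.43-fold), LAP-Smad2 treated (5.35-fold) and LAP-Smad3 treated (7.34-fold). At ZNF773 the promoter was bound in both untreated libraries and in LAP-Smad2 treated (5.65-fold, 3.70-fold and 3.56-fold), while the LAP-Smad3 treated peaks lay in Alu-type flanks. At ZNF584 the lists did not meet at a single place: the library labelled LAP-Smad3 untreated and LAP-Smad2 treated shared an untranslated exon 7.37 to 7.56 kb into the gene, and the library labelled LAP-Smad2 untreated shared a GC-rich unit with LAP-Smad3 treated.

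Several other genes carried repeated peaks. ZNF100 had GC-rich units in its 3' flank and an Alu-type window 21995 bp into the gene that were bound in both treated lists and in the library labelled LAP-Smad2 untreated. ZNF28 had a GC-rich unit bound in the same 3 lists (9.80-fold, 4.21-fold and 5.74-fold). ZNF540 and ZNF571 overlap on opposite strands and shared 5 LAP-Smad3 treated peaks, the strongest at 7.72-fold in an Alu-type window and 1 of them at the promoter of ZNF571. ZNF536, a 489-kb gene known as a regulator of neuronal differentiation, stands outside the clusters and had 6 LAP-Smad3 treated peaks and none in the other lists. ZNF426 had a pair of peaks 2697 bp and 3075 bp upstream in LAP-Smad2 treated and a promoter peak in LAP-Smad3 treated 107 bp upstream. ZNF324 had 3 LAP-Smad2 treated peaks, the first in its last coding exon. ZNF135, ZNF208 and ZNF256 each had a peak of the library labelled LAP-Smad3 untreated that overlapped one of LAP-Smad2 treated.

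The peak shares hardly followed the domain content of the proteins. In LAP-Smad2 treated 87 of 180 genes with a KRAB-like pattern (48.3%, 41.1 to 55.6%) and 28 of the other 69 (40.6%, 29.8 to 52.4%) had a peak. In LAP-Smad3 treated the shares were 63.3% (56.1 to 70.0%) and 60.9% (49.1 to 71.5%), and at promoters 16.1% (11.5 to 22.2%) and 26.1% (17.2 to 37.5%). By number of fingers, 58.7% of genes with under 10, 62.1% with 10 to 14 and 67.1% with 15 or more had a LAP-Smad3 treated peak, and these intervals overlapped.

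The partners of KRAB zinc finger proteins were examined as a list of 18 genes on several chromosomes: TRIM28 and SETDB1, the heterochromatin proteins, the nucleosome remodelling and deacetylase subunits, the maintenance DNA methyltransferase and its partner, the HUSH complex and the MORC ATPases. None of the 18 had a peak in an untreated library, where 17.3% (labelled LAP-Smad2) and 7.38% (labelled LAP-Smad3) of all 20033 protein-coding genes had a peak. In LAP-Smad2 treated 11 of 18 had a peak, beside 48.0% of all genes, and 4 of 18, CBX1, CHD3, DNMT1 and TASOR, had a promoter peak, beside 22.8% of all genes. In LAP-Smad3 treated 15 of 18 had a peak, beside 64.1% of all genes, and 0 of 18 had a promoter peak, beside 14.9%. TRIM28, which lies on chromosome 19 just beyond the last run of ZNF genes, had 2 LAP-Smad3 treated peaks and none in LAP-Smad2 treated. DNMT1, the maintenance methyltransferase, had 3 and 5 peaks, UHRF1 4 and 2, and MORC3 2 and 4 in LAP-Smad2 and LAP-Smad3 treated. CBX3, HDAC1 and SUV39H1 had no peak in any list.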

How the data were processed

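Anti-GFP ChIP-seq of 4 libraries, 1 per condition, was available as narrowPeak lists. According to the methods of the study, single-end reads were aligned to hg38 with Bowtie2 and extended to 200 bp, and peaks were called with MACS2 at a q cut-off of 0.05. bedtools is also named in the submitters' processing notes. The control library, software versions, filters and handling of reads with several places are not given in the sources used here. The deposited lists give for each peak a score, a fold enrichment, a −log10 p, a −log10 q and a summit offset. Fold and −log10 q were used as deposited by the authors. The depth of each library is unknown from these lists.

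Groups follow the sample labels. Peaks were assigned to GENCODE release 44 genes by an overlap of 1 bp with the span widened by 3 kb, and called promoter peaks within 1 kb of the gene's 5' end. Windows of 200 bp on the peak centre were read from hg38 and aligned back to it with minimap2 2.31-r1302, with 50 further alignments listed and 90% of bases matching called another copy. Windows without any alignment were also counted as having another copy. The seed of this search was shortened after a first run, which raised the number of copies found slightly, and single Alu-type windows went from none to many. Windows and tiles were typed by 12-letter words, with at least 10 words of a set. Finger and KRAB-like patterns were searched in translations of the canonical coding sequences. Shares have Wilson and densities exact Poisson intervals at 95%. No test was made, as each condition had 1 library. Scripts were tested on simulated data and used Python 3.11.15, numpy 2.4.6, pandas 2.3.3, scipy 1.17.1, pysam 0.24.0, matplotlib 3.10.9 and samtools 1.23.1.

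The sequences of some windows are not reported here. The members and lists were chosen with earlier results of these data known. The word sets, and the alternatives of 5 or 20 words and of leaving out read-through members, were chosen after seeing the data. Genes were named when they had a promoter peak in both treated lists, a peak in all 4 lists, the most peaks in a list (5 genes in each treated list, 3 in each untreated), 1 of the 3 promoter peaks with the highest −log10 q in a list, or no peak and the greatest length (5 genes), and the co-repressor list was added. Alternatives changed the widening, the promoter distance, the start sites, the q cut-off, the list length, the family names, and the treatment of copies and of shared peaks.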

Additional observations from a re-analysis of the deposited data

How the results depend on the processing

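Of 212 values recomputed under alternatives, 179 stayed within the counting interval of the reported value and 33 did not, and in 15 of 132 values set beside the other genes the order changed. The share of ZNF genes with a peak became 55.8% in LAP-Smad3 treated without widening. With 10 kb of widening it became 22.9% in the library labelled LAP-Smad2 untreated, 58.2% in LAP-Smad2 treated and 75.9% in LAP-Smad3 treated, and the promoter share of LAP-Smad2 treated peaks became 24.5%. With a promoter of 500 bp, 14.5% of ZNF genes had a LAP-Smad3 treated promoter peak. With 3 kb it was 26.5%, and the promoter share of peaks was 46.2% in LAP-Smad2 treated and 28.7% in LAP-Smad3 treated. With the starts of all protein-coding transcripts, 27.3% of ZNF genes had a LAP-Smad2 treated promoter peak, and 49.0% and 25.5% of the LAP-Smad2 and LAP-Smad3 treated peaks were promoter peaks.

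With lists of equal length, the shares of genes with a peak were 5.62% (labelled LAP-Smad2 untreated), 7.63% (LAP-Smad2 treated) and 2.41% (LAP-Smad3 treated), those with a promoter peak 0%, 2.81% and 0.803%, and the densities 0.160, 0.206 and 0.0571 per 100 kb, since fewer peaks were counted. Peaks that touched both a ZNF gene and 1 of the other genes were also left out. The shares of ZNF genes with a peak were then 37.8% and 51.4% in LAP-Smad2 and LAP-Smad3 treated. Those of the other genes were 46.5% and 59.6%, so that the order in LAP-Smad3 treated was reversed. The densities were 1.37 and 2.32, against 2.31 and 4.30 at the other genes. Without windows with another copy, the shares were 2.81%, 33.3% and 39.8% and the densities 0.0800, 0.926 and 1.28 in LAP-Smad2 untreated (as labelled), LAP-Smad2 treated and LAP-Smad3 treated, and the mean GC of LAP-Smad3 treated gene-body windows was 57.2%. At 80% of bases matching, 73.1% of all these windows had another copy. A stricter q of 0.01, the summit position, 200 bp around the summit, the wider family of 264 names, 5 or 20 words, leaving out read-through members and a run gap of 500 kb moved no value outside its interval. No paired analysis was possible because each condition had 1 library. The depth of each library is not in the deposited lists, so that a missing peak does not show that binding was absent.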
